A study of Mus musculus with 6 samples.

Results

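The blood-testis barrier is built by Sertoli cells, and 9 genes for its junction proteins were examined in testes of a germ cell knockout line. The genes were the claudins *Cldn11*, *Cldn3* and *Cldn5*, occludin (*Ocln*), the scaffold ZO-1 (*Tjp1*), the junctional adhesion molecules *F11r* (JAM-A) and *Jam2* (JAM-B), connexin 43 (*Gja1*) and N-cadherin (*Cdh2*). They were chosen by symbol as tight, gap and basal junction genes of the tubule, 9 of the 54232 genes in the count table, and all 9 were measured well enough to be tested. Bulk RNA-seq was performed on whole testes of mice at postnatal day 12, with 3 libraries of the genotype *Dis3l2* WT (control) and 3 of the genotype *Dis3l2* KO, all given the strain background B6D2F1. In the study the mutants are described as *Stra8-Cre*; *Dis3l2* F/- (*Dis3l2* cKO), with littermates as controls. *Stra8-Cre* acts in premeiotic germ cells from type A1 spermatogonia onwards, so Sertoli cells and other somatic cells of the mutants keep the floxed allele beside the null. The labels do not say whether a library came from 1 animal or a pool, and p-values therefore measure the spread between these libraries.

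Sertoli cells line the seminiferous tubule and seal its adluminal compartment from the interstitium around the time when the first germ cells pass through meiotic prophase. In the barrier, claudins and occludin span the membrane and close the space between neighbouring cells. Junctional adhesion molecules sit beside them, and ZO-1 ties the strands to actin. Connexin 43 forms the gap junctions through which Sertoli cells exchange small molecules with each other and with germ cells, and N-cadherin holds the basal ectoplasmic specialization together. *Cldn11* is the claudin without which Sertoli cells form no tight junction strands, and *Cldn3* and *Cldn5* are further claudins of the barrier around preleptotene spermatocytes. Many of these genes are not specific to Sertoli cells: *Cldn5* marks endothelium, *Gja1* is also used by Leydig and peritubular cells, *Cdh2* by germ cells, and *Tjp1* by most epithelia and endothelia.

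Of the 9 genes, 6 rose in the KO-labelled testes, 0 fell (also 0 at an unadjusted p under 0.05, by DESeq2 and by limma-voom), and 3 did not pass the test (*Cldn3*, *Cldn5* and *Cdh2*). *Gja1* rose most, to 2.19-fold of the control, followed by *Ocln* at 1.79-fold and *Jam2* at 1.76-fold, while *F11r* (1.56-fold), *Cldn11* (1.36-fold) and *Tjp1* (1.29-fold) rose less. Over all 20327 genes tested, 32.7% were called at an adjusted p under 0.05 by edgeR's quasi-likelihood test, 16.2% as higher and 16.5% as lower. These folds hold for libraries scaled over all genes (TMM), and scaling to Sertoli cell markers left 1 of the 9 genes higher (*Gja1*) and made 5 lower, as described further on. In whole testis, fewer cells of a type and less RNA per cell cannot be told apart.

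Depth was 33325483 to 44956193 counts per library, and mitochondrially encoded genes took 5.01% to 6.51% of them. Control libraries held 31560 to 34399 genes with a count and KO-labelled libraries 27705 to 28414. The gene named in the labels was checked first: *Dis3l2* stood at 25.8, 23.5 and 23.03 CPM (counts scaled to a common library total) in the control and at 31.6, 25.4 and 27.5 CPM in KO-labelled testes, which differed by 0.22 ± 0.11 on the log2 scale (SE, n = 3 per group, adjusted p = 0.136, edgeR). Its paralogue *Dis3*, which the series' design text names as the deleted gene, was at 133, 148 and 137 against 59.1, 64.3 and 68.1 CPM (log2 fold change -1.13 ± 0.08, adjusted p = 2.7e-07, edgeR). Counts over a whole gene do not show the loss of single exons. Because the RNA of *Dis3l2* was not lower in these counts, the mutant libraries are called KO-labelled throughout. By RT-qPCR and immunoblot the study reported less *Dis3l2* RNA and protein in mutant testes of the same age, and those measurements were not analysed here. The cause of the lower *Dis3* value was not tested, and the 8 germ cell markers listed further on had a median log2 fold change of -1.18. Meiotic prophase transcripts separated the groups widely, with 11 of 11 markers lower and a summed level of 1734 to 2129 CPM in the control against 410 to 532 CPM in the KO-labelled libraries.

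Promoter letters are shown for 4 of the genes: *Cldn11*, the most abundant, *Gja1* and *Ocln*, the 2 with the largest rise, and *Cldn3*, the lowest and uncalled. Each sequence is the 250 bases before the gene's start in RefSeq on GRCm38.p6, read 5′ to 3′ on the gene's strand (for *Gja1* this start lies slightly upstream of the counted gene model), and capitals mark matches, on either strand, to the motifs GGGCGG (GC box), CCAAT (the CCAAT box), TATAAA (the TATA box), TGANTCA (the AP-1 site), TGACG (CRE core), AGATAA (the GATA factor site), AACAAT (the SOX site), CACGTG (E-box) and AGAACA (steroid receptor motif).
Cldn11, chr3:31149670-31149919, plus strand: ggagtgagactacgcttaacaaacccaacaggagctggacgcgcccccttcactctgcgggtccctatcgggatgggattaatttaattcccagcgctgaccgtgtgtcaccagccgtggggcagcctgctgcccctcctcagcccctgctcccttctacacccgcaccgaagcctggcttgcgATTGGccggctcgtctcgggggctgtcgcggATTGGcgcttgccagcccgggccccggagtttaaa
Gja1, chr10:56377050-56377299, plus strand: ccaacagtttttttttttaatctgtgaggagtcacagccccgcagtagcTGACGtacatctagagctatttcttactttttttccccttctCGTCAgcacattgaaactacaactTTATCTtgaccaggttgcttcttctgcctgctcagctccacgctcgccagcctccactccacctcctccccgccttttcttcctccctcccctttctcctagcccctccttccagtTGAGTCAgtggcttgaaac
Ocln, chr13:100552719-100552968, minus strand: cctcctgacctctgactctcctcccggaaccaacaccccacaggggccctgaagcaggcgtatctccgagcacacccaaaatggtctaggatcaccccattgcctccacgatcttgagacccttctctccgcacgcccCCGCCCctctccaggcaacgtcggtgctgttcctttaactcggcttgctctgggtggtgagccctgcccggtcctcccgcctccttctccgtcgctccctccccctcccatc
Cldn3, chr5:134985964-134986213, plus strand: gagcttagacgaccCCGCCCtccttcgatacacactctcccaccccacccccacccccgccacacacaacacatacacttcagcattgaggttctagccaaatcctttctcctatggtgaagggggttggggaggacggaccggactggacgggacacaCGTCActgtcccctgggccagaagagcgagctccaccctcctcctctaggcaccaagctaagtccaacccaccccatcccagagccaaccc
The *Cldn11* window held CCAAT 2 times on the opposite strand, beginning 66 and 35 bases before the start. CCAAT occurred in 33.9% of all 32851 RefSeq windows of this length. The *Gja1* window differed from the other 3 shown in holding an AP-1 match, TGAGTCA, 19 bases before the start, and it also held TGACG 201 and 159 bases and AGATAA 135 bases before it. An AP-1 match was also present in the *F11r* window, which is not shown, 109 bases before that gene's start. AP-1 matches were present in 6.75% of all windows, TGACG in 17.8% and AGATAA in 9.99%. *Ocln* carried a GC box 112 bases upstream in the window of its more distal start, and *Cldn3* carried a GC box at 236 and TGACG at 91 bases. GC boxes occurred in 32.7% of all windows. No TATAAA (12.4% of windows), AACAAT (9.42%), CACGTG (6.02%) or AGAACA (16.1%) was found in these 4 windows, and no match overlapped another. The GC content was 63.6% for *Cldn11*, 64.0% for *Ocln* and 60.8% for *Cldn3*, against 50% for *Gja1* and a median of 52.4% over all windows. *F11r*, *Tjp1* and *Cldn5* also had windows, 7 of the 9 genes in all, while *Jam2* and *Cdh2* had no entry used here. A match describes letters and is no evidence of binding.

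*Cldn11* (chr3:31149920-31164324, plus strand, GRCm38) was counted at 780, 819 and 696 CPM in the control and at 1031, 1037 and 1045 CPM in KO-labelled testes. All 3 KO-labelled libraries were above all controls, and they lay close together, whereas the controls spread more widely. The rise was 0.44 ± 0.08 on the log2 scale (SE; 95% interval 0.26 to 0.61; adjusted p = 8.2e-04, edgeR), and it turned to -0.24 (adjusted p = 0.014) with scaling to 23 Sertoli markers. *Ocln*, the tetraspan partner of the claudins (chr13:100496507-100552718, minus strand), was read at 37.2, 40.4 and 36.7 CPM in the control and at 68.9, 68.5 and 66.8 CPM in the KO-labelled testes. Its groups were far apart relative to their spread, with a log2 fold change of 0.84 ± 0.08 (95% interval 0.66 to 1.02; adjusted p = 5.2e-06, edgeR). With scaling to the Sertoli markers *Ocln* kept a positive value, 0.16, without passing the test (adjusted p = 0.111).

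The other claudins of the set were rare transcripts. *Cldn3* (chr5:134986214-134987472, plus strand) was covered by 50, 67 and 96 counts in the control and by 46, 43 and 73 counts in the KO-labelled libraries, or 1.44, 1.58 and 2.18 against 1.27, 1.004 and 1.91 CPM. The groups overlapped, and the log2 fold change of -0.32 had a 95% interval from -1.02 to 0.38 (adjusted p = 0.498, edgeR). It was -0.12 without control replicate 3 or KO replicate 2 and -0.61 without KO replicate 3, and it was called in none of these. *Cldn5* (chr16:18776847-18778262, plus strand) had 109, 128 and 211 against 89, 133 and 160 counts, or 3.14, 3.01 and 4.79 against 2.45, 3.10 and 4.19 CPM. Its groups overlapped too, with the third library of each group the highest, and the log2 fold change was -0.17 (95% interval -0.71 to 0.38; adjusted p = 0.656, edgeR). Leaving out single libraries gave *Cldn5* values from -0.38 (without KO replicate 3) to 0.08 (without control replicate 3), so no direction can be read for it with TMM scaling. At this depth a rise of *Cldn3* or *Cldn5* by the 0.44 seen in *Cldn11* lay just outside both intervals, and a fall to 0.61-fold for *Cldn5* or 0.49-fold for *Cldn3* lay within them.

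Both adhesion molecules rose. *Jam2*, which pairs with JAM-C and is found on Sertoli cells and endothelium (chr16:84774123-84825928, plus strand), was at 139, 151 and 138 CPM in the control and at 249, 247 and 257 CPM in KO-labelled testes. *F11r*, a JAM of epithelial tight junctions (chr1:171437535-171464603, plus strand), was at 177, 184 and 168 against 315, 276 and 233 CPM. Neither gene's groups overlapped, and the KO-labelled libraries were tight for *Jam2* and scattered for *F11r*, whose lowest KO-labelled library was still above the highest control. The log2 fold changes were 0.81 ± 0.07 (95% interval 0.65 to 0.97; adjusted p = 2.4e-06, edgeR) for *Jam2* and 0.64 ± 0.10 (0.43 to 0.85; adjusted p = 1.8e-04) for *F11r*, with values of 0.13 and -0.04 under Sertoli marker scaling that did not pass the test (adjusted p = 0.127 and 0.693). The scaffold *Tjp1* (chr7:65296165-65527781, minus strand), which binds claudins, occludin and JAMs, stood at 564, 616 and 524 CPM in the control and at 689, 750 and 763 CPM in KO-labelled testes. Its libraries also did not overlap, and its log2 fold change was the smallest of the called genes, 0.37 ± 0.08 (95% interval 0.19 to 0.55; adjusted p = 0.0035, edgeR), and it turned to -0.31 under Sertoli marker scaling (adjusted p = 0.0033).

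*Gja1*, the gap junction subunit (chr10:56377330-56402513, plus strand), was counted at 269, 271 and 257 CPM in the control and at 613, 567 and 566 CPM in the KO-labelled testes. Every KO-labelled library held more than 2 times the CPM of any control library. The log2 fold change was 1.13 ± 0.08 (95% interval 0.97 to 1.29; adjusted p = 1.1e-07, edgeR), and *Gja1* alone of the 9 genes stayed called as higher under Sertoli marker scaling (0.45 ± 0.08, adjusted p = 1.3e-04). *Cdh2*, the cadherin of the basal ectoplasmic specialization on chromosome 18, was at 139, 138 and 139 CPM against 144, 140 and 154 CPM. The groups were separated by a margin of under 1 CPM, and the log2 fold change of 0.08 ± 0.07 did not pass the test (95% interval -0.08 to 0.24; adjusted p = 0.473, edgeR). The upper end of that interval lay below the log2 fold change of each of the 6 called genes. Library scaling set its sign: -0.04 without TMM factors and -0.61 with the Sertoli markers (adjusted p = 1.4e-05). Counting *Cdh2*, 7 of the 9 genes had groups without overlap, all higher, where 45.5% of all genes tested did not overlap, 21.7% higher and 23.8% lower.

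**Figure D1:**
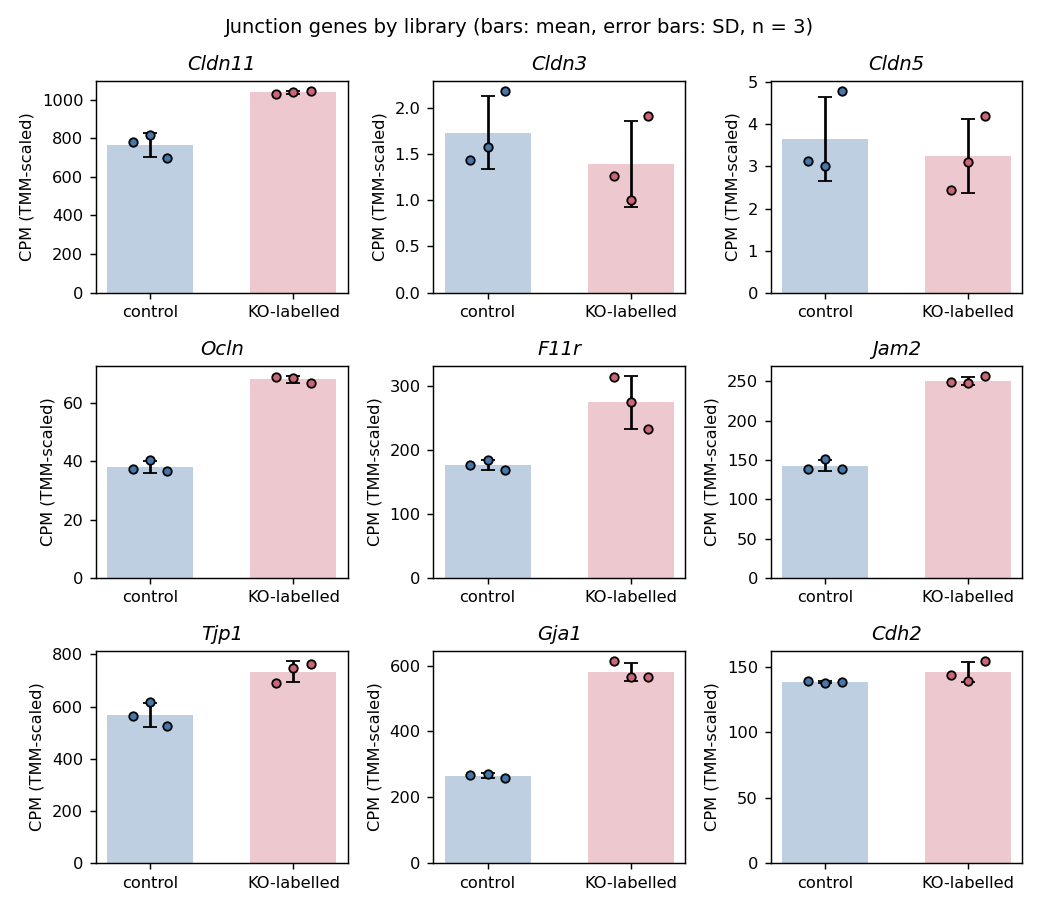
CPM (TMM-scaled, vertical axes from 0) of the 9 barrier genes in each library, with points for libraries, bars for group means and error bars for SD (n = 3 per group). The 3 KO-labelled points lie above all control points for *Cldn11*, *Ocln*, *F11r*, *Jam2*, *Tjp1*, *Gja1* and, by a small margin, *Cdh2*, and the groups overlap for *Cldn3* and *Cldn5*. With scaling to Sertoli markers *Cldn11*, *Tjp1*, *F11r* and *Cdh2* turn negative.

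Levels of different genes were compared per kilobase of exon (CPM per kb, or RPKM). *Cldn11* dominated the set at 409 ± 33.5 RPKM in the control (SD, n = 3), which was 65.2% of the summed level of the 9 genes, and at 555 ± 3.6 RPKM in the KO-labelled libraries (62.5%). *Tjp1* (67.1 to 78.8 RPKM) and *F11r* (63.1 to 69.0 RPKM) followed in the control with overlapping libraries. Next came *Gja1* (25.04 to 26.5 RPKM) and *Jam2* (22.9 to 25.1 RPKM), which also touched, then *Cdh2* (17.1 to 17.3 RPKM), *Ocln* (8.68 to 9.57 RPKM), *Cldn5* (2.13 to 3.38 RPKM) and *Cldn3* (1.14 to 1.73 RPKM), none of which overlapped the next. In the KO-labelled libraries *Gja1* (55.2 to 59.8 RPKM) drew clear of *Jam2* (40.9 to 42.5 RPKM), and *F11r* (87.4 to 118 RPKM) and *Tjp1* (88.1 to 97.6 RPKM) again overlapped, now in the opposite order of their means. *Gja1* thus took 6.39% of the summed level in place of 4.13%, and *Ocln* 1.82% in place of 1.44%, while *Cdh2* went from 2.74% to 2.04%.

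**Figure D2:**
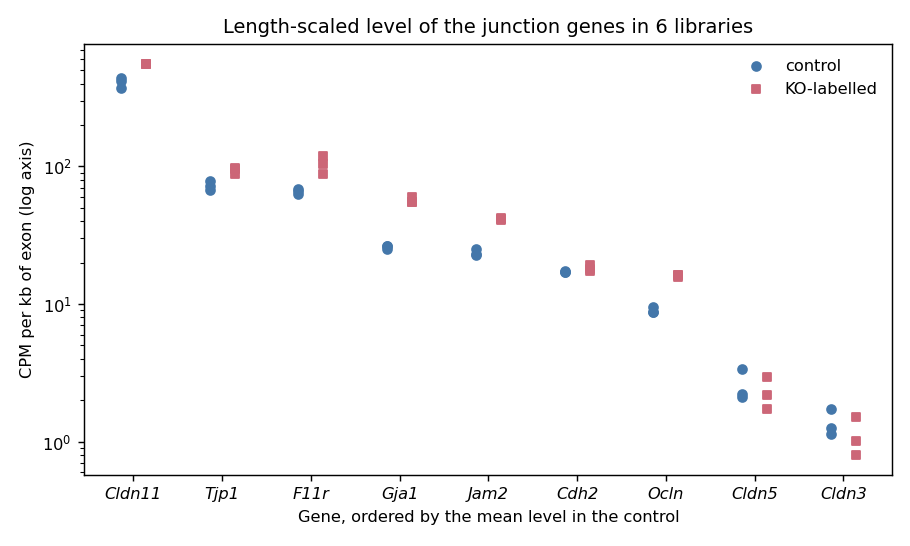
Length-scaled level (CPM per kb of exon, log axis) of each gene in each library, ordered by the control mean, with circles for control and squares for KO-labelled libraries (3 each). *Cldn11* is highest at 372 to 438 RPKM in the control and *Cldn3* lowest at 1.14 to 1.73 RPKM.

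The barrier genes were next set against other transcripts of Sertoli cells within each library. A list of 23 Sertoli cell markers was present in full, 18 of them higher and 0 lower, with a median log2 fold change of 0.73 against -0.02 over all genes. Over all genes tested 16.2% were called higher and 16.5% lower. Without TMM factors 17 of the markers were higher and 1 lower. The summed level of the markers was 9572 to 10265 CPM in the control and 15521 to 16345 CPM in the KO-labelled libraries. The part that a larger share of Sertoli RNA plays in the rise of the barrier genes was not tested. *Clu* (3572 ± 109 against 5939 ± 361 CPM, SD, n = 3; log2 fold change 0.73 ± 0.09 SE) and *Aard* (1706 ± 40.9 against 2584 ± 71.6 CPM; 0.60 ± 0.08) were the most abundant, with 0.05 and -0.08 left under scaling to the list. The markers ranged from -0.13 (*Defb36*) to 1.83 (*Hsd17b1*). *Gja1* exceeded 20 of the 23 markers in log2 fold change, *Ocln* and *Jam2* exceeded 16, *F11r* 10, *Cldn11* 8, *Tjp1* 7, *Cdh2* 2, and *Cldn5* and *Cldn3* 0.

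Taken as a log2 ratio to the mean of the 23 markers in the same library, *Gja1* was at 0.96, 0.94 and 0.91 in the control and at 1.49, 1.30 and 1.35 in the KO-labelled libraries. Those groups did not overlap, and the difference was 0.44. *Ocln* (0.15) and *Jam2* (0.12) were also higher relative to the markers, by small margins and without overlap. *F11r* was not separated, with a difference of -0.06 and overlapping groups (two-sided exact permutation p = 0.7). *Cldn11* went the other way, from 2.50, 2.53 and 2.35 in the control to 2.24, 2.17 and 2.23, a difference of -0.25. *Tjp1* (-0.32), *Cdh2* (-0.62), *Cldn5* (-0.86) and *Cldn3* (-1.03) were lower too, each without overlap. For the 8 genes without overlap the two-sided exact permutation test gave p = 0.1, the smallest that 3 against 3 libraries allow, and 0.113 after adjustment over the 9 genes, so none could pass 0.05. Of all genes tested, 70.9% did not overlap between groups on this ratio, 1.02% higher and 69.9% lower, beside which the 3 genes higher and 5 lower are to be read.

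Whole libraries were also scaled to the 23 markers and fitted over all genes. Scaled this way, *Gja1* was called higher and *Cldn11*, *Tjp1*, *Cdh2*, *Cldn5* (-0.85, adjusted p = 0.012) and *Cldn3* (-0.99, adjusted p = 0.019) lower. Of the 23 markers themselves, 7 were called higher and 8 lower in this fit, so the reference genes did not move together. The scaling moved the median of all genes by -0.68, and 66% of all genes were called, 0.723% higher and 65.3% lower, so the share of the 9 genes called lower was no larger than that of all genes. A second scaling, chosen after seeing the data, used 5 transcription factor genes of the list, without its homeobox genes *Rhox5* and *Rhox8*. The 5 were *Sox9*, *Wt1*, *Sox8*, *Gata1* and *Nr0b1*, with 3 of 5 higher. Their log2 fold changes ranged from 0.09 to 0.80 with a median of 0.33, so this scaling rests on few genes that differed among themselves. It moved the median by -0.42 and called 43.1% of all genes, 1.91% higher and 41.2% lower. Under it *Gja1* (0.71, adjusted p = 1.1e-05), *Ocln* (0.42, adjusted p = 0.0040) and *Jam2* (0.40, adjusted p = 0.0019) were called higher and *Cdh2* lower (-0.34, adjusted p = 0.0099). *Cldn11* (0.03, 95% interval -0.14 to 0.19) and *Tjp1* (-0.04, -0.22 to 0.14) lay close to 0 under this scaling, and *F11r* (0.22), *Cldn5* (-0.60) and *Cldn3* (-0.75) did not pass the test. *Gja1* was the 1 gene called higher under all 3 scalings, and no scaling called *Cdh2*, *Cldn3* or *Cldn5* higher.

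**Figure D3:**
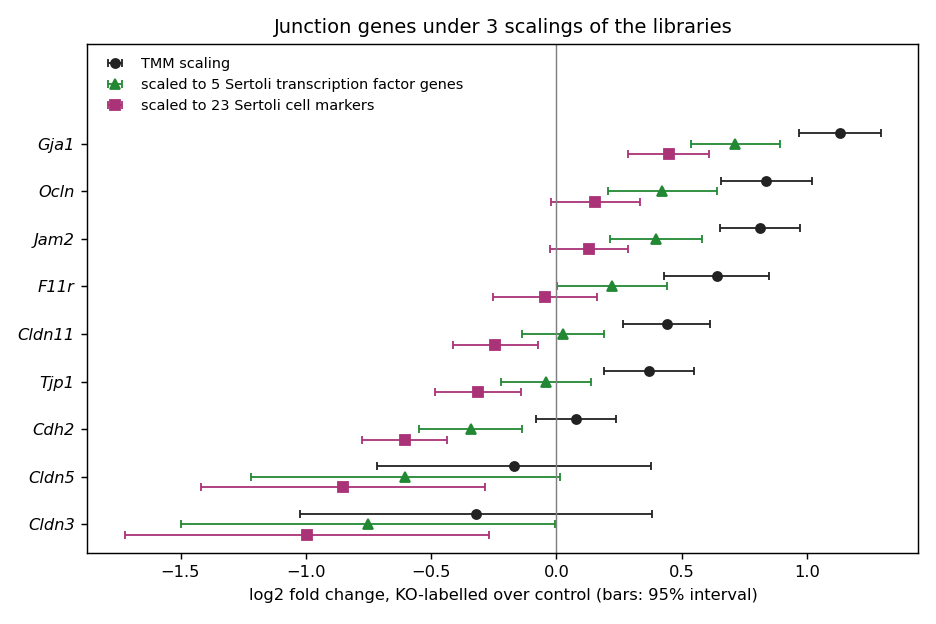
Log2 fold change (KO-labelled over control, horizontal axis) of the 9 genes with 95% intervals under scaling over all genes (TMM, circles), to 5 Sertoli transcription factor genes (triangles) and to 23 Sertoli cell markers (squares). *Gja1* stays to the right of 0 in all 3 fits (1.13, 0.71 and 0.45), whereas *Cldn11* goes from 0.44 to 0.03 and -0.24 and *Tjp1* from 0.37 to -0.04 and -0.31.

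**Figure D4:**
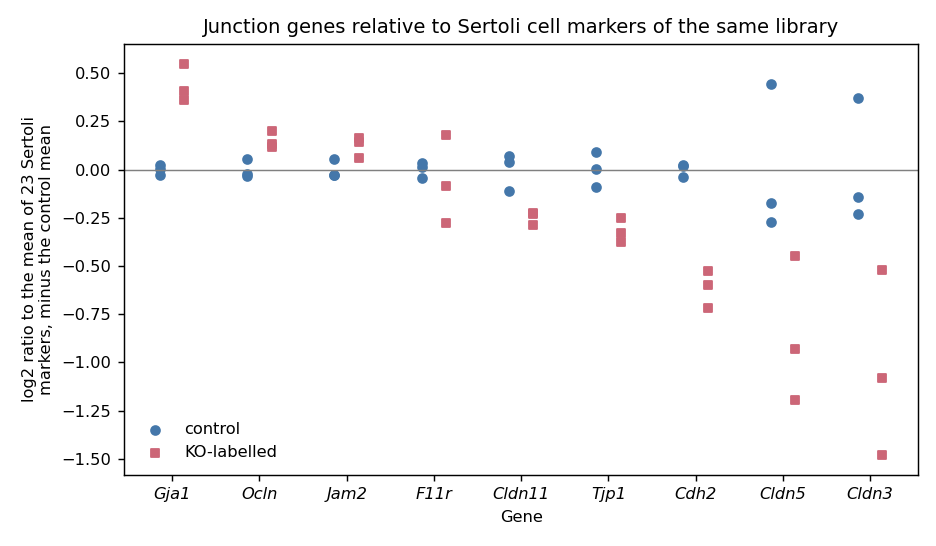
Log2 ratio of each gene to the mean of 23 Sertoli markers in the same library, as the distance from the control mean (vertical axis), with circles for control and squares for KO-labelled libraries. *Gja1*, *Ocln* and *Jam2* lie above the control libraries, *F11r* overlaps them, and *Cldn11*, *Tjp1*, *Cdh2*, *Cldn5* and *Cldn3* lie below.

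Ratios between barrier genes do not depend on any scaling. The log2 ratio of *Gja1* to *Cldn11* CPM was -1.54, -1.59 and -1.44 in the control and -0.75, -0.87 and -0.88 in the KO-labelled libraries. Connexin 43 transcripts therefore gained on those of claudin 11 by 0.69 on the log2 scale, with no overlap (two-sided exact permutation p = 0.1, adjusted over 3 ratios 0.15, where 0.1 is the smallest possible). The ratio of *Cldn3* to *Cldn11* was lower by 0.78, from -9.06, -9.00 and -8.30 to -9.64, -9.98 and -9.07 (exact permutation p = 0.1, adjusted 0.15), on fewer than 100 *Cldn3* counts a library. That of *Cldn5* to *Cldn11* overlapped between groups (difference -0.61, exact permutation p = 0.2, adjusted 0.2), and the difference was -0.33 without control replicate 3.

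Beyond the 9 genes, 112 genes of junctions and their regulation were listed, and 97 of them were tested. With TMM scaling 32 were higher (33.0%) and 13 lower (13.4%), 46.4% in all against the 32.7% of all genes, and the counts became 20 and 20 without TMM factors, 1 and 66 with Sertoli marker scaling, and 3 and 38 with the transcription factors. Their median log2 fold change was 0.12. Adherens and basal ectoplasmic specialization genes gave 16 of the 32 rises, with 16 higher and 5 lower of 29 (median 0.30). The higher count was 11 without control replicate 1 and 12 without KO replicate 2 or without TMM factors. It was 1 with Sertoli marker scaling and 3 with the transcription factors. The lower count was 3 without control replicate 1 and 2 without control replicate 2 or KO replicate 2. *Cdh1* (E-cadherin) had the smallest adjusted p of this list's genes called higher, at 9.99, 8.56 and 11.02 against 26.2, 23.8 and 27.1 CPM. It was the 1 gene of all these lists called higher also with Sertoli marker scaling (1.38 ± 0.13 with TMM, 0.70 ± 0.14 with the markers, adjusted p = 5.4e-04, edgeR). Counts of whole testis do not show which cells the *Cdh1* RNA came from, and a Sertoli source of its rise was not tested. *Nectin2*, the nectin of Sertoli cells, was at 241, 265 and 249 against 376, 392 and 399 CPM (log2 fold change 0.63 ± 0.08, or -0.05 with the markers). *Ptk2* (focal adhesion kinase) was lower, at 162, 168 and 156 against 94.2, 103 and 111 CPM (-0.66 ± 0.08), as was the Src family kinase *Yes1* (-0.37 ± 0.09), and both were lower under each of these scalings.

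Other tight junction genes went both ways with TMM scaling, with 9 higher and 4 lower of 24 and a median of 0.04. The counts were 5 and 7 without TMM factors, 0 and 21 with Sertoli marker scaling, and 0 and 10 with the transcription factors. Without control replicate 3 or KO replicate 2, 6 were higher. Of all genes tested, 16.2% were called higher and 16.5% lower with TMM scaling, and the lower count of 4 in this list was near that share. The counts of the smaller lists that follow are to be read beside the same shares. The polarity gene *Pard6b* was at 97.1, 103 and 94.6 against 130, 136 and 136 CPM (0.45 ± 0.08, or -0.23 with Sertoli marker scaling). The scaffolds *Magi3* (105, 107 and 94.7 against 56.2, 61.5 and 68.7 CPM, -0.72 ± 0.09) and *Mpp5* (PALS1; -0.50 ± 0.08) were lower under each of these scalings. Of 17 further claudins 8 were tested, and 0 were called in either direction by edgeR (median -0.31), with 1 in each direction at an unadjusted p under 0.05, 0 by DESeq2 and 1 lower by limma-voom. Without KO replicate 1, 1 was lower, and without KO replicate 3, 1 was higher and 2 lower. The most abundant of these were *Cldn12* (34.6, 39.9 and 34.9 against 26.04, 31.4 and 32.5 CPM, adjusted p = 0.059, edgeR) and *Cldn1* (26.4, 28.9 and 26.6 against 40.6, 31.6 and 28.8 CPM, adjusted p = 0.071), both far below *Cldn11*.

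Among 17 listed connexins and pannexins other than *Gja1*, 11 were tested, 0 were higher and 3 lower by edgeR, with a median of -0.34. Over all genes tested 16.2% were called higher and 16.5% lower, and 11 genes are too few to be told apart from these shares. At an unadjusted p under 0.05, 1 was higher, and limma-voom called 1 higher and DESeq2 0. The lower count was 1 without control replicate 3, KO replicate 1 or KO replicate 2, and 1 was higher without KO replicate 2. *Gjc1* (connexin 45) was at 43.5, 52.4 and 45.4 CPM in the control and 22.6, 23.9 and 28.4 CPM in KO-labelled testes (-0.92 ± 0.11, adjusted p = 2.5e-05, edgeR), and the scarce *Gja3* (0.78, 1.86 and 1.70 against 0.08, 0.49 and 0.73 CPM) was lower as well (-1.72 ± 0.56), a call lost without control replicate 2 or 3 or KO replicate 1 or 2. Both were lower under each scaling, so the connexins 43 and 45 moved in opposite directions in the same testes. Desmosomal genes were scarce, with 2 of 8 higher, *Dsc2* (3.23, 3.27 and 3.02 against 5.14, 6.61 and 6.34 CPM) and *Dsp* (3.72, 2.59 and 4.11 against 4.98, 5.37 and 6.55 CPM), and 0 lower (1 lower at an unadjusted p under 0.05 and by limma-voom, 0 by DESeq2). Without KO replicate 3, 1 was higher and 1 lower, and *Dsp* was also not called without control replicate 2. Neither gene was called with Sertoli marker scaling (0.24 and 0.01). Among 17 regulators and transporters of the barrier, 5 were higher and 1 lower, with 2 higher without control replicate 1, 3 higher without KO replicate 1 and 2 lower without KO replicate 3. *Timp1*, an inhibitor of metalloproteases, was at 9.82, 6.82 and 6.97 CPM in the control and at 15.1, 12.2 and 10.2 CPM in KO-labelled testes (0.67 ± 0.18, or -0.02 with Sertoli marker scaling). The efflux transporter *Abcg2* was lower under each scaling (-0.45 ± 0.11).

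**Figure D5:**
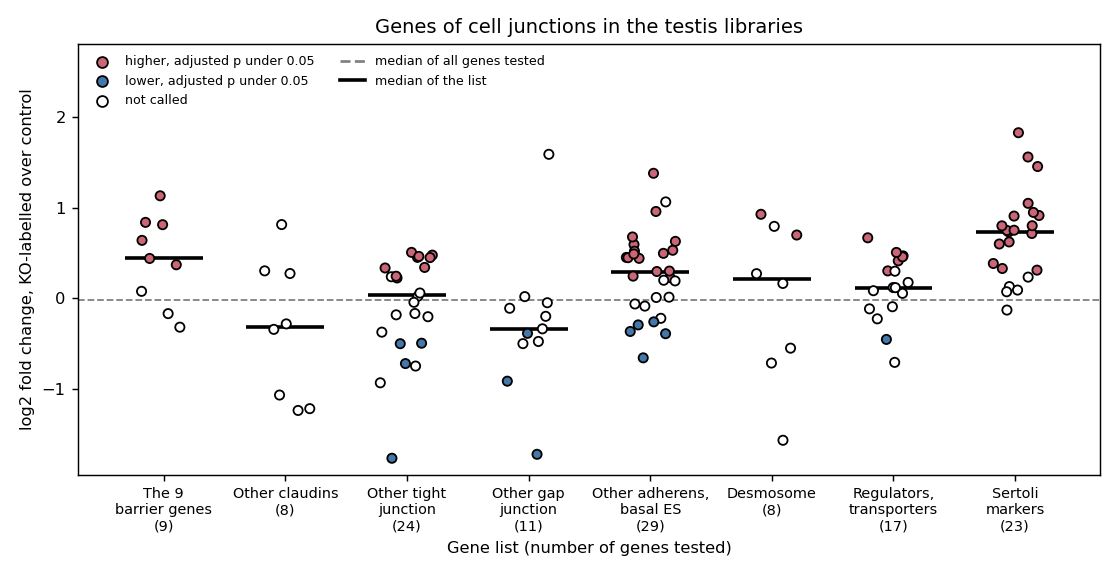
Log2 fold change (KO-labelled over control, TMM scaling, vertical axis) of every tested gene of each junction list and of the Sertoli markers, coloured by the edgeR call, with black bars for list medians and a dashed line for the median of all genes. The 9 barrier genes have a median of 0.44, the other claudins -0.31, the other gap junction genes -0.34 and the Sertoli markers 0.73, and scaling to those markers makes 66 of the 97 other junction genes lower and 1 higher.

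Markers of other cells that use these genes were read in the same libraries. Of 12 endothelial markers, relevant for *Cldn5* and *Jam2*, 3 were higher, 0 lower and 9 uncalled, where 32.7% of all genes were called, with a summed level of 394 to 459 CPM in the control and 532 to 574 CPM in the KO-labelled libraries. *Cdh5* was called, at 222 ± 21.3 against 290 ± 19.3 CPM (SD, n = 3), and *Eng* was not, at 73.8 ± 10.2 against 83.9 ± 4.1 CPM. Leydig cell markers, which bear on *Gja1*, were 5 higher and 0 lower of 7 (394 to 440 against 571 to 613 CPM), including *Hsd3b1* (109 ± 5.7 against 152 ± 39.6 CPM) but not *Star* (113 ± 5.3 against 116 ± 28.3 CPM), and 3 were higher without control replicate 2 or without TMM factors. Peritubular myoid markers were 0 higher and 3 lower of 7 (1819 to 1919 against 1691 to 1790 CPM), with *Mylk* and *Myh11* uncalled. Without control replicate 3, 1 myoid marker was higher, and without KO replicate 2 only 1 was lower. Macrophage markers were 6 higher and 0 lower of 9 (156 to 184 against 215 to 299 CPM, with *Mrc1* at 0.43 and *Csf1r* at 0.47). The count of macrophage markers higher was 3 without control replicate 2 or KO replicate 1 and 2 without TMM factors. Stromal markers were 3 higher and 0 lower of 6 (3378 to 4327 against 4045 to 6202 CPM, with *Dcn* called at 0.44 and *Col1a1* uncalled at 0.20). Epithelial markers of the rete and ducts were 0 higher and 1 lower of 5 (3 higher without KO replicate 2), the lower being *Epcam* (66.5 ± 3.7 against 35.4 ± 0.4 CPM), and *Pax8* was at 3.50 ± 0.34 against 4.24 ± 0.69 CPM. *Epcam* went against the rest of this list, in which the other 4 genes had positive log2 fold changes (list median 0.57). The cells that its RNA came from were not tested. The call of *Hsd3b1* was lost without control replicate 2, KO replicate 1 or KO replicate 2, and that of *Dcn* without control replicate 3 or KO replicate 1. With scaling to the Sertoli markers 0 endothelial, Leydig, macrophage and stromal markers were higher, and 9, 1, 1 and 2 of them were lower. No listed marker was at 0 in all libraries. The part of these cells in the values of the 9 genes was not tested.

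Germ cell markers were 0 higher and 6 lower of 8, with summed levels of 1397 to 1621 against 516 to 653 CPM (*Dazl*, -1.66, and *Mael*, -1.07), and the meiotic genes *Tex15* (-2.12) and *Sycp1* (-1.72) were lower with the rest of their list. Markers of undifferentiated spermatogonia were 6 higher and 0 lower of 10 with TMM scaling (1 and 3 with Sertoli marker scaling), 262.8 to 268.9 against 295 to 365 CPM, although the most abundant of them, *Zbtb16* (0.14) and *Sall4* (0.01), did not pass the test. The counts of 0 in the cell type lists, from edgeR, were also 0 at an unadjusted p under 0.05, by DESeq2 and by limma-voom, except that 1 myoid and 1 rete marker were higher at an unadjusted p under 0.05. These germ cell values are given because a level per library total also moves with the other transcripts of its library, and their part in the rise of the 6 barrier genes was not tested.

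The genes whose course over the 6 libraries lay closest to 3 of the barrier genes were looked up by the root mean square difference of centred log2 CPM, among protein-coding genes of at least 5 CPM on average. Closest to *Cldn11* were *Aass* (0.018 on the log2 scale), *Stambp* (0.023) and *Ddah1* (0.023), with log2 fold changes of 0.43, 0.42 and 0.47. *Gja1* had *Epha7* (0.066), *Bex2* (0.087) and *Acp7* (0.089) nearest, with 1.08, 1.19 and 1.07. For *Cldn3* they were *Cntrob* (0.10), *Syt15* (0.12) and *Med18* (0.13), at wider distances. The likeness is over 6 libraries of 2 groups and was not tested.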

How the data were processed

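RNA-seq was performed by the authors on whole testes at postnatal day 12 (3 control and 3 KO-labelled libraries). Reads were trimmed with cutadapt, aligned with HISAT2 (GRCm38.p5 in the submitters' processing notes) and counted with featureCounts 1.6.4 over GENCODE M18, and the authors deposited raw counts per gene. These counts were taken as deposited, with 0 columns of library values left unused. GENCODE M21 named 54165 of the 54232 genes, and coordinates are on GRCm38.

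Groups came from the labels. The 20327 genes kept by filterByExpr were fitted with edgeR 4.0.16 (R 4.3.3; TMM factors, quasi-likelihood test, Benjamini-Hochberg adjustment over all genes tested, threshold 0.05), and 95% intervals came from the same fit. CPM are TMM-scaled. Ratios within a library used log2 CPM with a prior count of 1 and a two-sided exact permutation test over 20 arrangements (smallest p 0.1). DESeq2 1.42.0, limma-voom (limma 3.58.1), other factors, filters, a replicate block and leaving out each library were the alternatives, and the scaling to 5 transcription factor genes was added after seeing the data.

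The genes, lists and tests were chosen with earlier results of these data known. Named were the 9 genes, *Dis3l2* and *Dis3*, then from each other junction list the 2 genes of smallest adjusted p in each direction or, with no call, the 2 of highest mean CPM, from each cell type list the 2 of highest mean CPM, and for *Cldn11*, *Cldn3* and *Gja1* the 3 nearest genes. Some genes that this rule selects are not reported here. Genes of the Sertoli marker list at its extremes were named after their values were seen. Replicates differed by more than counting noise (smallest chi-square per degree of freedom 11.0). With 33325483 to 44956193 counts a library, counting error was largest for *Cldn3* (43 to 96 counts a library) and *Cldn5* (89 to 211). Motif search covered both strands of RefSeq windows on GRCm38.p6.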

Additional observations from a re-analysis of the deposited data

How the results depend on the processing

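The 6 genes called higher and 0 called lower were the counts under DESeq2, limma-voom, RLE, upper-quartile and no TMM factors, both filters, and without any 1 library (6 to 6 higher, 0 to 0 lower). Scaling changed them to 1 higher and 5 lower with the Sertoli markers and to 3 and 1 with the transcription factors. Signs turned for *Cldn11* (-0.24), *Tjp1* (-0.31), *F11r* (-0.044) and *Cdh2* (-0.61) with the markers, for *Tjp1* (-0.041) and *Cdh2* (-0.34) with the transcription factors, and for *Cdh2* without TMM factors (-0.038). These scalings moved the median of all genes by -0.68, -0.42 and -0.12, which by construction shifts every gene. Without single libraries *Cldn5* ranged from -0.38 to 0.080, with 0.080 without control replicate 3 and 0.0045 without KO replicate 1, and the cause was not tested. The other junction lists gave 32 higher and 13 lower, which became 20 and 20 without TMM factors, 1 and 66 with the Sertoli markers and 3 and 38 with the transcription factors, and ranged from 23 to 35 higher and from 8 to 16 lower without single libraries (8 without control replicate 2). Relative to the transcription factors in place of all markers, *Cldn11* was at 0.0019 and *F11r* at 0.19, and *F11r* relative to the markers ranged from -0.18 to 0.048 without single libraries, with 0.048 without KO replicate 3 (cause not tested). A prior count of 5 left every direction of the ratios.

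Replicate numbers did not pair the libraries (correlations of deviations -0.0014, -0.0126 and 0.0139). With the replicate number as a block, 6 of the 9 genes were higher and 0 lower, and the other junction lists had 32 higher and 15 lower.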
